A study of Saccharomyces cerevisiae with 2 samples.

Results

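The proteasome genes were 33 of the 6002 nuclear protein-coding genes of budding yeast (*S. cerevisiae*, build sacCer3, R64). The rule named them by their place in the complex and used no measured value: 14 genes of the core particle, 18 of the regulatory particle, and UMP1, an assembly factor that belongs to neither. The reference annotation names the product of 32 of them as a proteasome subunit, and the exception was UMP1. The genes lie on 13 chromosomes. The level of DNA methylation that an added methyltransferase left at their promoters was compared between the particles, within the set and with the other 5969 genes.

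Both libraries came from nuclei of strain S288C, a laboratory strain with no methylation of its own, grown in YPD at 30°C. Spheroplasts made with Zymolyase were fixed with 1% formaldehyde and permeabilized with 0.1% NP40, as the labels give it. Nuclei received either CCMT, a form of M.CviQIX shortened at the N-terminus, whose target is the first C of CC, or the control enzyme GCMT (M.CviPI), whose target is the C of GC. By the methods, the reactions ran for 1 h at 37°C, and the methylated cytosines were then read by bisulfite sequencing. There was 1 library per enzyme and no replicate, so no p-value is given, and differences are read against counting error and against the spread over genes, which are not replicates. The CCMT library listed 900211 nuclear cytosines with a median coverage of 31 reads, and the GCMT library listed 839016 with a median of 13. Nuclei without enzyme were not analysed here, so the level in the gene bodies served as the background measured in the same way.

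The proteasome degrades proteins that carry ubiquitin chains. Its core particle is a barrel of stacked rings, in which the outer alpha rings gate the entry and the inner beta rings hold the proteolytic sites. The regulatory particle caps the barrel. Its base holds a ring of ATPases that unfold and translocate the substrate, and its lid removes the ubiquitin. In budding yeast, the transcription factor Rpn4 binds the proteasome-associated control element (PACE), GGTGGCAAA, upstream of many of these genes, and is itself degraded by the proteasome.

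GGTGGCAAA stood within 500 bp upstream of the start codon, on either strand, in 27 of the 33 proteasome genes (81.8%), against 72 of the 5969 other genes (1.21%), of which 11 shared the match of a proteasome gene. The core particle had 12 of 14 and the regulatory particle 15 of 18. Each of the 27 genes held 1 match, and none lay in a coding sequence. The centres of the matches were between −179 and −80 bp, with a median of −116 bp and quartiles of −145.5 and −105 bp. The match read in the direction of the gene in 19 genes and against it in 8. The sequences below are the promoter regions, from −250 to −100 bp of the start codon, of the genes with the highest and the lowest mean of their percentile ranks in both libraries. They are given in the direction of the gene, and capitals mark GGTGGCAAA.
RPN2 (chrIX:220800-220950, - strand): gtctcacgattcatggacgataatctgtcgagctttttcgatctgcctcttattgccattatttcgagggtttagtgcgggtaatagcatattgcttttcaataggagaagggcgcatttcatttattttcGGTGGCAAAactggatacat
PRE3 (chrX:434913-435063, + strand): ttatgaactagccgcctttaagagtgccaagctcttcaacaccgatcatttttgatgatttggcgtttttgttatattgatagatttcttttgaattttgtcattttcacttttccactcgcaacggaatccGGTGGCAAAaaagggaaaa

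The next sequences hold the match with 25 bp on either side. They are shown for the 2 other genes with the largest difference in rank between the enzymes, and for the 2 other genes with the lowest levels. Capitals mark the match, which appears as TTTGCCACC where it reads against the gene.
RPT1 (chrXI:174033-174091, + strand): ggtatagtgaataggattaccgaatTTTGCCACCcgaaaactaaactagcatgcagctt
PRE7 (chrII:141135-141193, + strand): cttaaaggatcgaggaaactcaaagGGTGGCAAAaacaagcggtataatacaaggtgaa
RPT6 (chrVII:411337-411395, - strand): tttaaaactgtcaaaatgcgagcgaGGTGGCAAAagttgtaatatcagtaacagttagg
RPN9 (chrIV:1322071-1322129, + strand): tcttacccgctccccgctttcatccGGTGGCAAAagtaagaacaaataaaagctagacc

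The 6 genes without a match were PRE5, PUP1, RPN8, RPN10, RPN13 and UMP1. The shorter string TGGCAAA, which is contained in GGTGGCAAA, stood in 30 of the 33 proteasome genes and in 11.4% of the other genes, and the 3 genes that it added were PRE5, PUP1 and RPN8. All 3 had the same 9 bases, which differed from GGTGGCAAA by G1A, counted from 1 at the 5′ end of GGTGGCAAA. They are shown because this single letter separates them from the other 27, and capitals mark the 9 bases. RPN10, RPN13 and UMP1 held neither string in this window. A match is a string of letters, and binding of Rpn4 was not measured.
PRE5 (chrXIII:901537-901595, + strand): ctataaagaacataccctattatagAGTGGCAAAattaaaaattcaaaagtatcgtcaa
PUP1 (chrXV:631876-631934, - strand): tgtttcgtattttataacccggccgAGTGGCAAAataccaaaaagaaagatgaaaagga
RPN8 (chrXV:817070-817128, - strand): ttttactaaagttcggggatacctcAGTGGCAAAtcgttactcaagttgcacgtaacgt

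The promoters of the proteasome genes were more methylated than those of the other genes with both enzymes. The promoter level of a gene is the mean level of its cytosines from −250 to −100 bp, where at least 3 were listed, and all 33 genes had a value in both libraries. The median over the proteasome genes was 22.1% with CCMT, between quartiles of 18.6% and 25.9%, and 23.4% with GCMT (17.4% and 29.6%), against 18.0% (11.7% and 24.8%) and 19.2% (11.8% and 27.3%) over the other genes. The difference was 4.18 percentage points with CCMT and 4.17 with GCMT. Intervals of the medians from order statistics gave these differences half-widths of 3.07 and 3.22 points. The 137 ribosomal protein genes, another large set of genes for one machine, had higher medians of 29.1% and 31.3%, so the proteasome genes lay 6.97 and 7.90 points below them.

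Almost every proteasome gene was open. A region was called open at a level of 15% or more. With CCMT 32 of the 33 proteasome genes were open, against 62.4% of the other genes, and with GCMT 29 were open, against 64.1%. Open with both enzymes were 28 of the 33 (84.8%), against 52.6% of the other genes, and 0 were open with neither, against 25.5%. With CCMT the genes nearest to the threshold were PRE7 below it (11.4%) and RPN8 above it (16.2%), and with GCMT they were PRE10 (14.9%) and PRE1 (15.9%). Among genes named here that are no members of the set, 115 of 132 ribosomal protein genes with values in both libraries (87.1%) were open with both enzymes, so a high share of open promoters was not particular to the proteasome genes.

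The gene bodies, from 100 to 500 bp after the start codon, were low in the whole set. Their level over the proteasome genes was between 4.37% and 9.90% with CCMT and between 3.14% and 12.0% with GCMT, with medians of 7.04% and 7.32%, against medians of 8.02% and 7.83% over the other genes. In 33 of the 33 proteasome genes the promoter level exceeded that of the gene body with each enzyme, against 86.7% of the other genes with each. It was at least 2 times the gene body in 32 proteasome genes with CCMT and in 28 with GCMT, against 55.3% and 60% of the other genes. The median ratio was 3.29 and 3.37 in the proteasome genes, against 2.18 and 2.36.

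**Figure D1:**
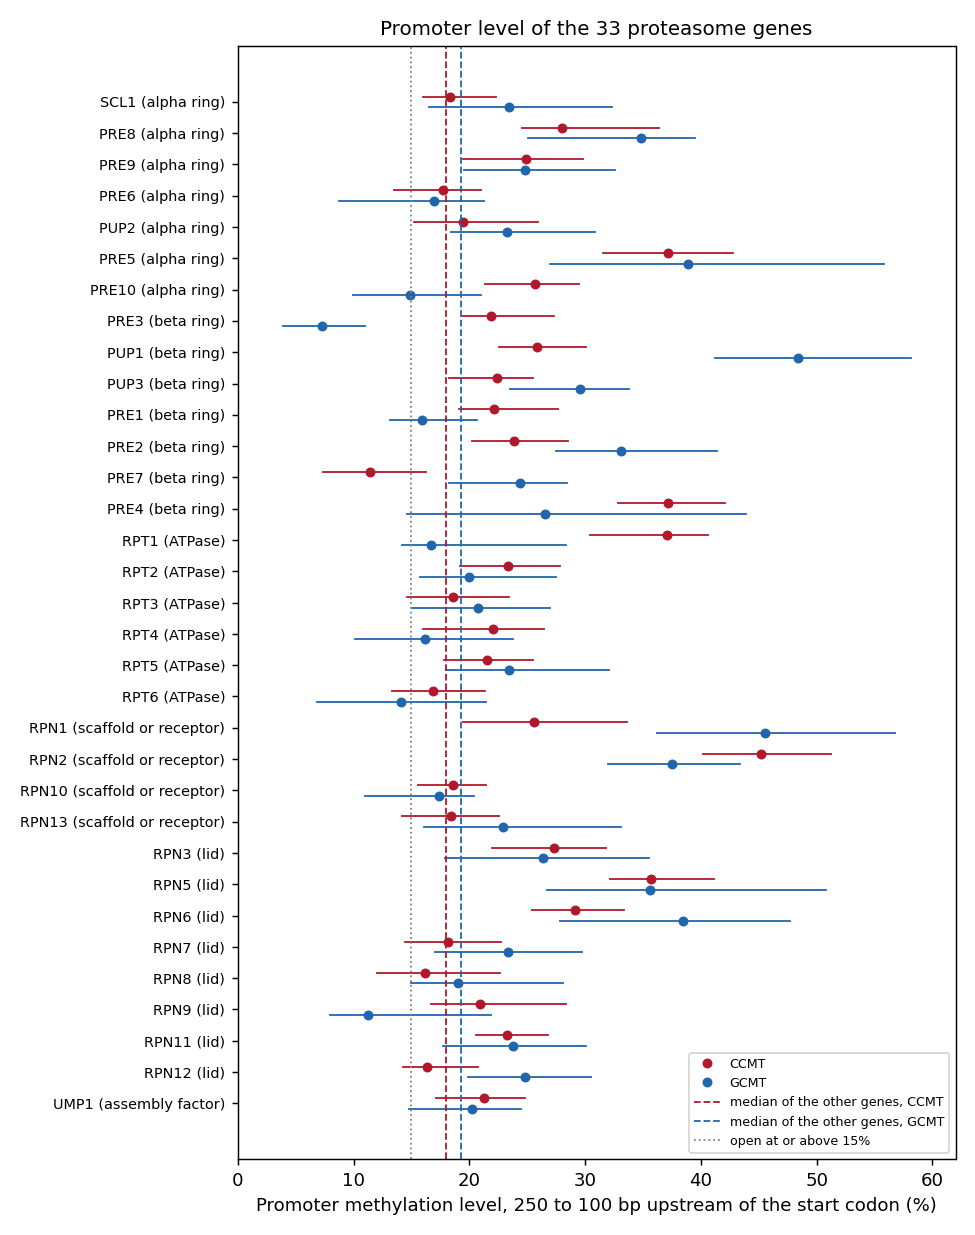
Promoter methylation level (x axis, %) of each of the 33 proteasome genes (y axis, grouped by part of the complex), in CCMT-treated nuclei (red, upper point) and GCMT-treated nuclei (blue, lower point). Points are means over cytosines, bars are 95% exact binomial intervals of the pooled reads, which cover counting error only, dashed lines are the medians of the other genes (18.0% and 19.2%) and the dotted line is the open threshold of 15%. PRE7 is the only red point under that line, and PRE3, RPN9, RPT6 and PRE10 are the blue ones.

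In the plot of promoter levels by gene, the levels spread over 11.4% to 45.2% with CCMT and over 7.24% to 48.4% with GCMT, and most genes lay near the middle. The promoter regions held 7 to 21 CC cytosines with 161 to 734 reads per gene, and 3 to 26 GC cytosines with 40 to 402 reads, so the GCMT intervals are wider.

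The alpha ring genes encode the gate of the core particle. SCL1 (alpha 1) had 18.3% with CCMT and 23.4% with GCMT, PRE8 (alpha 2) 28.0% and 34.9%, PRE9 (alpha 3) 24.9% and 24.8%, and PRE6 (alpha 4) 17.7% and 16.98%. PUP2 (alpha 5) had 19.4% and 23.2%, PRE5 (alpha 6) 37.1% and 38.8%, and PRE10 (alpha 7) 25.6% and 14.9%. PRE5 was the highest of this ring with both enzymes.

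PRE5 (YMR314W, promoter region chrXIII:901459-901609) had the second highest level of the set by the mean of its percentile ranks among all genes. Its 11 CC cytosines had levels between 19.2% and 50%, with a median of 37.9%. Only 4 GC cytosines were listed there, at 57.1%, 54.5%, 14.3% and 29.4%, so its GCMT value rests on 49 reads (95% exact binomial interval, 27.0% to 55.8%). PRE5 was 1 of the 3 genes with AGTGGCAAA, and the 2 lower GC cytosines, at −143 and −142 bp, lay inside it. The neighbouring gene TGL3 is transcribed away from PRE5, and 401 bp separate their coding sequences.

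The beta ring genes encode the proteolytic chamber, in which PRE3 (beta 1), PUP1 (beta 2) and PRE2 (beta 5) carry the active sites. PRE3 had 21.9% with CCMT and 7.24% with GCMT, PUP1 25.9% and 48.4%, and PRE2 23.8% and 33.1%. Of the subunits without an active site, PUP3 (beta 3) had 22.4% and 29.6%, PRE1 (beta 4) 22.1% and 15.9%, PRE7 (beta 6) 11.4% and 24.4%, and PRE4 (beta 7) 37.2% and 26.5%. The beta ring thus held both the lowest and the highest GCMT level of the set, PRE3 and PUP1, and the lowest CCMT level, PRE7.

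PRE3 (YJL001W, promoter region chrX:434913-435063) had the lowest mean rank of the set and one of the largest differences between the enzymes. The levels within its region were uneven, and the CC and GC cytosines were spread differently over it. From −150 to −100 bp, 7 CC cytosines had a mean level of 32.0% and 4 GC cytosines 14.4%. From −250 to −201 bp, 4 CC cytosines had 6.50% and 8 GC cytosines 2.99%. Both enzymes gave low levels in the distal stretch, which held 8 of the 14 GC cytosines but only 4 of the 12 CC cytosines. The single cytosines ranged from 2.63% to 46.2% with CCMT, where −124 bp was the highest, and from 0% to 27.8% with GCMT, where 6 of 14 were at 0. At the 5 GCC cytosines, which are targets of both enzymes, CCMT gave 3.03%, 6.06%, 14.3%, 12.5% and 23.8% and GCMT 6.25%, 11.8%, 0%, 7.14% and 10%, in order from −239 to −114 bp. PRE3 is the only gene of the set with an intron, and OST1 (511 bp away) is transcribed in the opposite direction. The highest 100-bp window upstream of PRE3 had its centre at −400 bp (CCMT, 47.7%) and at −380 bp (GCMT, 35.1%), on the OST1 side of the interval.

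PRE7 (YBL041W, promoter region chrII:140997-141147) was the only gene that was not open with CCMT, at 11.4% (95% exact binomial interval, 7.32% to 16.2%), while its GCMT level was 24.4% (18.3% to 28.4%). Its 7 CC cytosines were between 0% and 24.1%. Its 16 GC cytosines were between 0% and 52.9%, and 6 of them, from −200 to −151 bp, had a mean of 38.5%, where the 2 CC cytosines had 10.5%. At the GCC cytosine at −210 bp, CCMT gave 10.5% of 19 reads and GCMT 52.9% of 17 reads. At the other GCC cytosines the enzymes were closer, with 4.88% for CCMT and 7.69% for GCMT at −231 bp, and 21.1% and 30.8% at −175 bp. GCMT was thus the higher at all 3 shared cytosines, and by most at −210 bp.

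The ATPases of the base were RPT1 to RPT6. RPT1 had 37.0% with CCMT and 16.7% with GCMT, RPT2 23.3% and 20%, and RPT3 18.6% and 20.7%. RPT4 had 22.0% and 16.1%, RPT5 21.5% and 23.4%, and RPT6 16.8% and 14.1%. Apart from RPT1 with CCMT, the 6 genes lay between 14.1% and 23.4%, and this was the subgroup with the lowest GCMT median (18.3%).

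RPT1 (YKL145W, promoter region chrXI:173963-174113) had the largest difference in rank between the enzymes, 56.3 percentile points higher with CCMT. The 7 CC cytosines from −200 to −160 bp had levels between 29.6% and 72.7%. No GC cytosine was listed in that stretch. Where the enzymes shared a cytosine, at −207 bp, CCMT gave 31.8% of 22 reads and GCMT 40% of 15 reads. At the shared cytosine at −151 bp, inside GGTGGCAAA, they gave 6.67% of 15 reads and 0% of 7 reads. With so few reads, these 2 cytosines cannot decide whether the enzymes differ at shared positions. The source of the difference over the region was not tested.

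RPT6 (YGL048C, promoter region chrVII:411386-411536) had the second lowest mean rank. Its 10 CC cytosines were between 6.90% and 37.9%, with a median of 15.8%, and its 6 GC cytosines between 4.17% and 28.6%, with a median of 9.72%. The levels were highest nearest to the gene, with 37.9% at −122 bp for CCMT, and with 28.6% and 27.3% at −151 and −150 bp for GCMT. Its coding sequence lies 265 bp from that of ALG13, which runs in the opposite direction.

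The remaining subunits of the base include the scaffolds RPN1 and RPN2 and the ubiquitin receptor RPN10, and the receptor RPN13 is counted with them here, although the reference annotation places it in the lid. RPN1 had 25.5% with CCMT and 45.6% with GCMT, and RPN2 45.2% and 37.5%. RPN10 had 18.6% and 17.4%, and RPN13 18.4% and 22.9%. Both scaffolds were above both receptors with each enzyme. Of the RPN10 promoter region, 31 bp overlap a coding sequence, and of that of UMP1, 15 bp.

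RPN2 (YIL075C, promoter region chrIX:220800-220950) had the highest level of the set with CCMT and the highest mean rank. Its 13 CC cytosines were between 19.0% and 73.1%, with a median of 47.8%, and its 18 GC cytosines between 0% and 70.6%, with a median of 37.5%. High levels ran through the whole region, including 44.1% at −235 bp and 57.1% at −106 bp with CCMT. The 2 CC cytosines inside GGTGGCAAA had 28.6% and 19.0%, and the lower of them was the lowest CC cytosine of the region. At that same cytosine, −115 bp, GCMT gave 11.8% of 17 reads, and its neighbour at −114 bp had 44.4%.

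The lid genes encode the part that removes ubiquitin, which is the activity of RPN11. RPN11 had 23.2% with CCMT and 23.8% with GCMT. The structural lid subunits RPN3, RPN5 and RPN6 had 27.3% and 26.4%, 35.7% and 35.6%, and 29.1% and 38.5%, with CCMT and GCMT. RPN7 had 18.2% and 23.3%, RPN8 16.2% and 19.0%, RPN9 20.9% and 11.2%, and RPN12 16.4% and 24.8%. RPN5 and RPN6 stood above the rest of the lid with both enzymes. UMP1, which is needed for the maturation of the core particle, had 21.3% and 20.2%.

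RPN5 (YDL147W, promoter region chrIV:190674-190824) had the third highest mean rank. Its 16 CC cytosines were between 4% and 58.6% and its 7 GC cytosines between 0% and 55.6%, over 460 and 68 reads. RPN9 (YDR427W, promoter region chrIV:1321955-1322105) had the third lowest. Its CC cytosines all lay from −154 to −105 bp, with a median of 18.2%, while 6 of its 12 GC cytosines lay from −247 to −229 bp, where 5 were at 0% and 1 at 14.3%. The CC and GC cytosines of the RPN9 region thus lay partly at different places. Whether this accounts for the difference between the enzymes was not tested.

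Across the 33 genes, Pearson's r between the promoter levels with CCMT and with GCMT was 0.467 and Spearman's rho was 0.513, against 0.638 and 0.666 across 5510 other genes. CCMT gave the higher level in 16 of the 33. The points of each correlation share the 2 libraries and their depths, and the cytosines read by the enzymes differ. At the 117 GCC cytosines of these promoter regions that were listed for both enzymes, the mean level was 18.0% with CCMT and 22.7% with GCMT, CCMT was the higher at 54, and r was 0.298. These cytosines have fewer reads than a whole region, so this r is not comparable with that across genes.

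Core particle and regulatory particle genes did not differ beyond their spread. The median promoter level was 23.1% with CCMT and 24.6% with GCMT in the 14 core particle genes, against 21.8% and 23.1% in the 18 regulatory particle genes. The core particle genes were thus 1.36 points higher with CCMT and 1.48 with GCMT, and the half-widths of these differences, from order statistics, were 6.59 and 10.5 points. Such intervals do not show that the particles are alike. Open were 13 of 14 core particle genes with CCMT and 12 with GCMT, against 18 and 16 of 18 regulatory particle genes. The difference depended on the setting. It was 5.19 points with CCMT without the GCC cytosines, and it turned in 2 settings: without genes that share their upstream region with a divergent gene it was −0.77 points with CCMT, and with the region placed from −200 to −50 bp it was −2.20 points with GCMT.

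Within the particles, the order of the subgroups depended on the enzyme. The alpha ring median minus that of the beta ring was 2.45 points with CCMT (24.9% against 22.4%) and −3.10 points with GCMT (23.4% against 26.5%). The ATPase median was 21.8% with CCMT, against 22.1% in the lid. With GCMT it was 18.3%, against 24.3% in the lid, a difference of −5.93 points. These subgroups have 6 to 8 genes each.

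The promoter levels of the set were more even than those of the other genes with CCMT, and less clearly so with GCMT. The interquartile range was 7.28 points (CCMT) and 12.2 points (GCMT), against 13.0 and 15.5 points over the other genes, which is 0.559 and 0.787 times theirs. The half-widths of the intervals of the set's own ranges were 7.24 and 8.11 points, so the narrower spread is not separated from that of the other genes by these 33 values. Standard deviations differed less, with 7.39 and 9.68 points over the proteasome genes against 8.63 and 10.3 points. Counting of reads alone would give an SD of 2.25 and 3.75 points in the set. The order of the particles also turned between the enzymes, since the interquartile range of the core particle was below that of the regulatory particle with CCMT (5.78 against 8.40 points) and above it with GCMT (13.7 against 8.19 points).

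**Figure D2:**
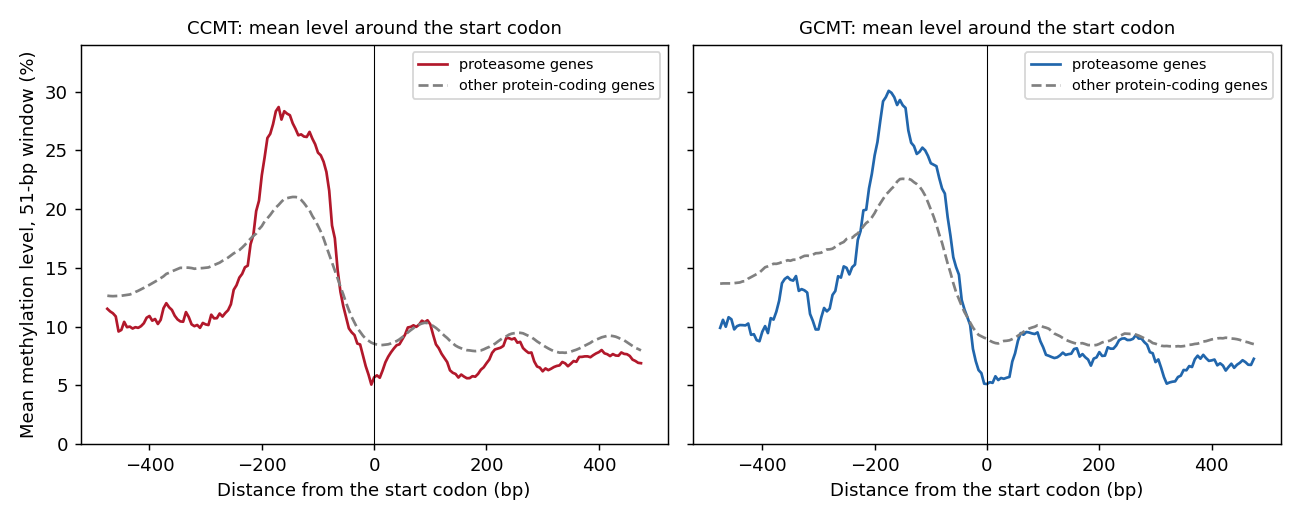
Mean methylation level (y axis, %, 51-bp running window) against the distance from the start codon (x axis, bp), for the proteasome genes (solid) and the other protein-coding genes (dashed), with CCMT (left) and GCMT (right). The proteasome genes reach 28.7% and 30.5% near −170 bp, and the other genes form a lower and wider hump.

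Even more than the level, the position of the open region was alike in the proteasome genes. In the mean profiles around the start codon, the set reached 28.7% at −170 bp (CCMT) and 30.5% at −172 bp (GCMT), against 21.1% at −139 bp and 22.6% at −147 bp over the other genes. The level stayed above the midpoint between the maximum and the gene body over 140 bp with CCMT, from −214 to −74 bp, and over 154 bp with GCMT, from −221 to −67 bp, against 298 and 316 bp over the other genes. A mean over genes is narrow where the genes line up, so the single genes were compared next.

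For each gene, the 100-bp window with the highest level from −450 to 0 bp was found. Its level was 28.3% (median) with CCMT and 33.3% with GCMT in the proteasome genes, against 28.4% and 31.4% in the other genes. The medians of the highest window thus differed little. Such a maximum over windows of at least 3 cytosines is raised by counting noise, more so where data are sparse. In the promoter region the other genes had medians of 10 cytosines and 268 reads with CCMT, against 13 and 390 in the proteasome genes. With GCMT they had 10 and 136, against 12 and 172. Near maxima thus do not show that the peaks are equally high. The groups differed more in the position of the highest window. Its centre had a median of −160 bp with CCMT and −170 bp with GCMT and an interquartile range of 60 and 70 bp, against medians of −180 and −190 bp and ranges of 160 and 160 bp in the other genes. From −220 to −100 bp, a band chosen after the values were seen, lay the centres of 28 proteasome genes with CCMT and 26 with GCMT (84.8% and 78.8%), against 52.5% and 50.1% of the other genes. The open bins of a single gene, within 500 bp upstream, added up to a median of 200 bp with CCMT and 150 bp with GCMT. In the other genes they added up to 150 and 150 bp. Open bins need not be adjacent, and bins without a listed cytosine count as not open. The sum is thus not the length of a single open stretch. In the ribosomal protein genes the window lay farther upstream, at −250 and −260 bp (medians), and the open bins added up to 300 and 250 bp.

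**Figure D3:**
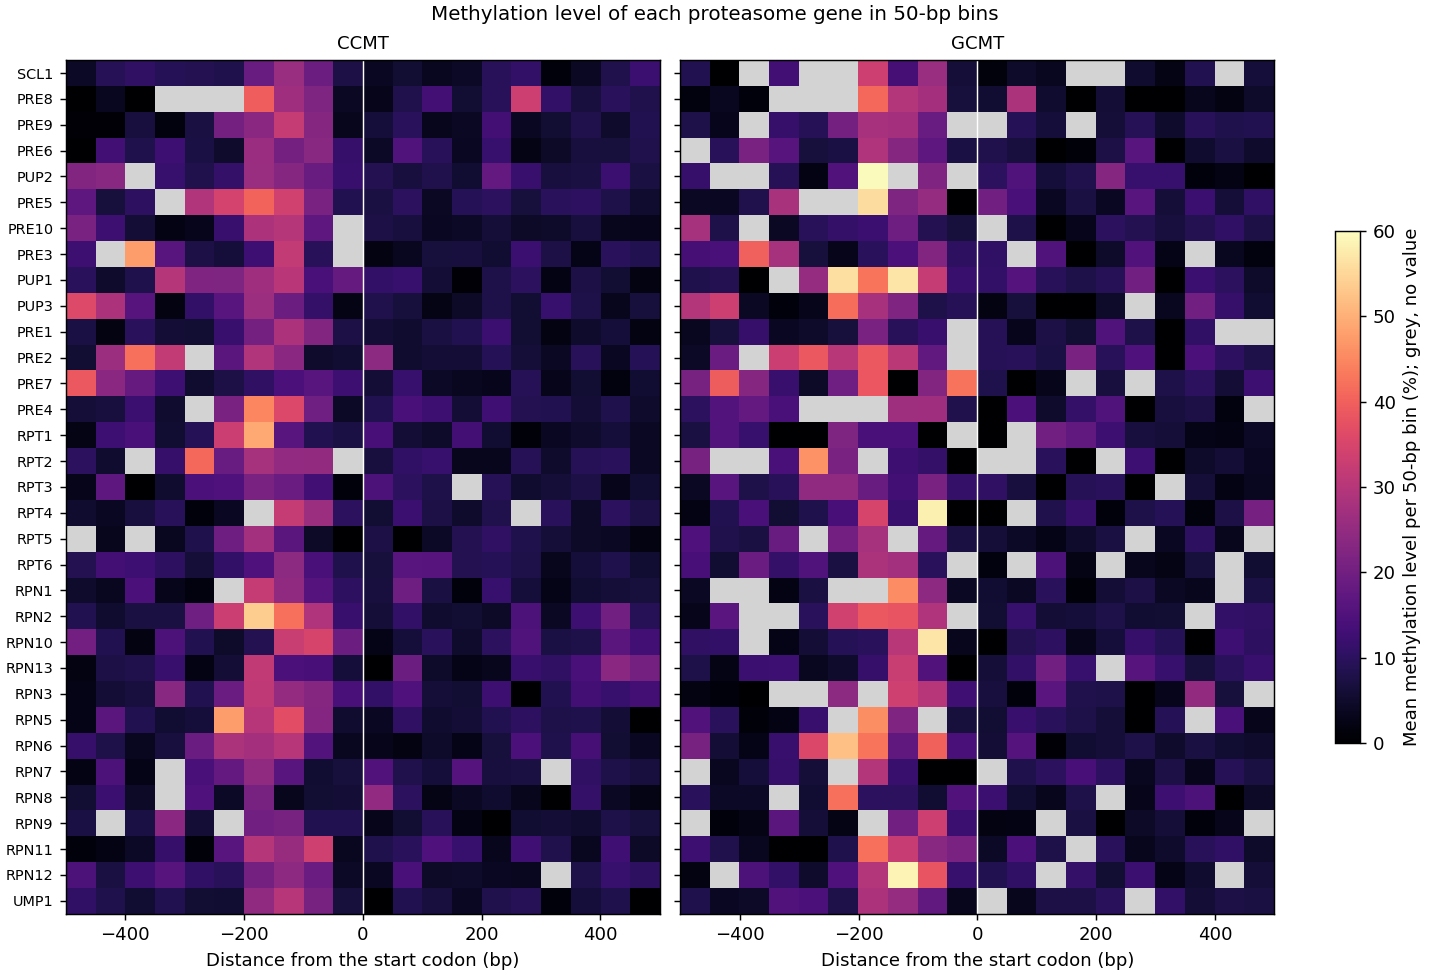
Mean methylation level in 50-bp bins (colour, %, grey where no cytosine was listed) against the distance from the start codon (x axis, bp), with 1 row per proteasome gene, for CCMT (left) and GCMT (right). The bright bins line up from −200 to −50 bp in most genes, and PRE3, PRE2, PRE7 and PUP3 also have bright bins beyond −350 bp with CCMT.

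Most genes shared the bins from −200 to −101 bp. From −200 to −151 bp, 28 of 32 proteasome genes were open with CCMT and 22 of 28 with GCMT, against 58.9% and 59.5% of the other genes. From −150 to −101 bp, 30 of 33 (90.9%) and 21 of 31 (67.7%) were open, against 62.6% and 63.2%. In this bin the share with GCMT was thus near that of the other genes. On both sides the order changed. From −300 to −251 bp, 5 of 30 and 6 of 27 proteasome genes were open, against 36.9% and 39.6% of the other genes, and from −50 to −1 bp, 2 of 30 and 3 of 26, against 16.1% and 19.5%. The minimum of the mean profile near the start codon was 5.05% with CCMT and 4.87% with GCMT in the proteasome genes, against 8.42% and 8.57%. The likeness of each gene's profile to the mean of the rest of its own set, as Pearson's r over 50-bp bins, had a median of 0.727 and 0.721, against 0.482 and 0.469 in the other genes. In the ribosomal protein genes it was 0.756 and 0.749, so such likeness was not particular to the proteasome genes. The bins of a gene share their libraries, and these r are descriptions.

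The windows outside the band belonged to both particles. With CCMT they were those of PRE3, PRE2, PRE7, RPT2 (−250 bp) and RPN7 (−260 bp), and with GCMT those of PRE3, PRE2, PUP3 (−230 bp), RPT2 (−280 bp), RPT3 (−250 bp), RPT4 (−80 bp) and RPN10 (−70 bp). The farthest were in beta ring genes. With CCMT, 3 windows were centred farther than −300 bp upstream, and these belonged to PRE3 (−400 bp), PRE7 (−390 bp) and PRE2 (−380 bp). With GCMT the window of PRE3 lay at −380 bp, that of PRE2 at −280 bp and that of PRE7 at −190 bp. All 3 genes have a divergent neighbour, OST1, FUI1 and RPL11A, a gene of the large ribosomal subunit. No window of a regulatory particle gene lay beyond −300 bp with either enzyme, against 20.6% and 22.8% of the other genes. The upstream coding sequence was also nearer in the regulatory particle genes, at a median of 355.5 bp against 449 bp in the other genes. Whether the distal windows belong to the neighbours was not tested.

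**Figure D4:**
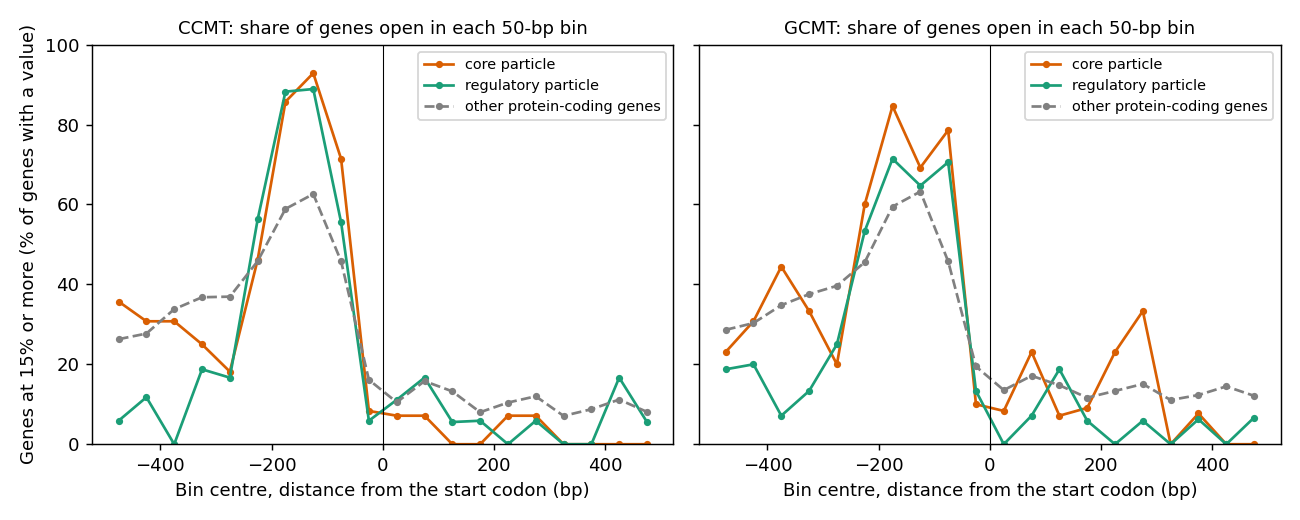
Share of genes at 15% or more (y axis, % of genes with a value) in each 50-bp bin (x axis, bin centre in bp from the start codon), for core particle genes (orange), regulatory particle genes (green) and the other protein-coding genes (dashed), with CCMT (left) and GCMT (right). Both particles are above the other genes from −200 to −50 bp and below them around −275 bp.

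In the plot of the share of open genes per bin, the core and regulatory particle curves ran together near the gene. From −200 to −151 bp, 12 of 14 core particle genes were open with CCMT and 11 of 13 with GCMT, against 15 of 17 and 10 of 14 regulatory particle genes. From −400 to −351 bp, 4 of 13 and 4 of 9 core particle genes were open, against 0 of 16 and 1 of 14 regulatory particle genes. The other genes had 33.8% and 34.8% open in this bin, so the core particle lay near them and the regulatory particle below them. The groups also differed in spacing. The median distance to the upstream coding sequence was 355.5 bp in the regulatory particle, 461.5 bp in the core particle and 449 bp in the other genes. In many regulatory particle genes this bin thus reached into the neighbouring gene. Whether spacing accounts for the difference was not tested.

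Of the 33 genes, 22 (66.7%) share their upstream region with a gene transcribed in the opposite direction, against 51.9% of the other genes. The median promoter level was 21.4% with CCMT and 23.3% with GCMT in these 22 genes, against 25.6% and 24.8% in the 11 others of the set. PRE4 and RPN12 lie on either side of RET2 on chromosome VI, so they have the same upstream neighbour but no shared promoter region.

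Levels with and without GGTGGCAAA lay close together within the set. The 27 genes with a match had median promoter levels of 22.4% with CCMT and 23.4% with GCMT, against 19.9% and 21.6% in the 6 without, and the interquartile ranges overlapped. All 6 genes without a match were open with both enzymes. PUP1 and PRE5 were among the highest of the set, but they hold AGTGGCAAA, 1 letter from the match. RPN8, which also holds it, had 16.2% and 19.0%. Of the genes with neither string, RPN10 had 18.6% and 17.4%, RPN13 18.4% and 22.9%, and UMP1 21.3% and 20.2%. These levels were below the medians of the set with both enzymes (22.1% and 23.4%). The 72 other genes with a match had medians of 22.4% and 21.7%, and 69.4% and 72.9% of those with a value were open, against 62.4% and 64.1% of all other genes. Of the 72, 11 shared the match of a proteasome gene, and the remaining 61 had medians of 19.96% and 20.97%, with 63.9% and 71.2% open. Of the proteasome genes with a match, 26 of 27 and 23 of 27 were open. The highest 100-bp window was centred upstream of the match in 24 of the 27 genes with each enzyme, by a median of 44 bp with CCMT and 60 bp with GCMT.

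**Figure D5:**
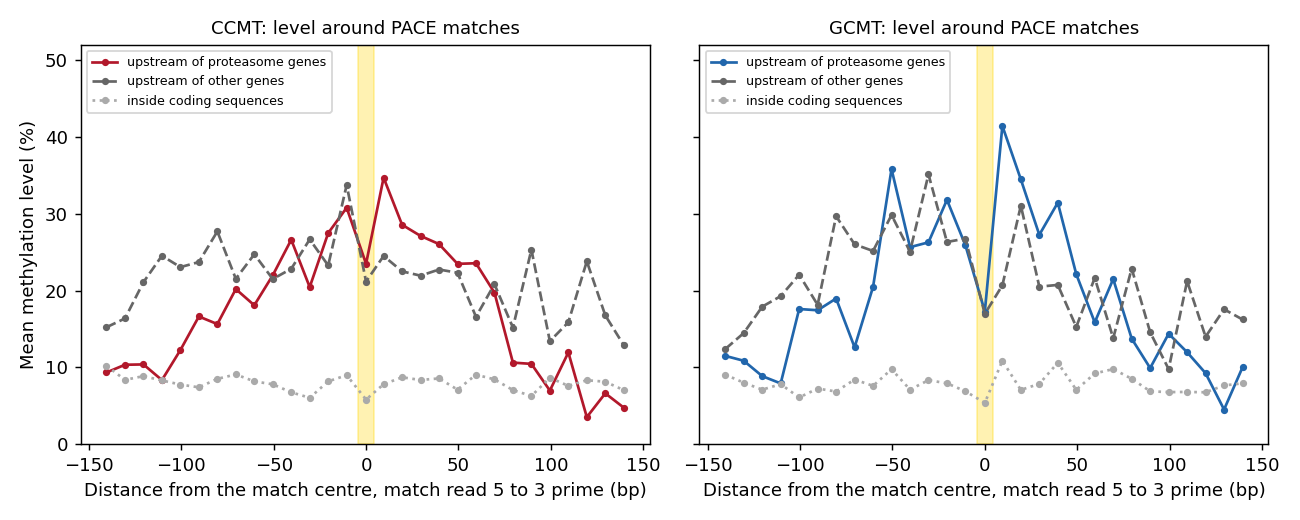
Mean methylation level (y axis, %) against the distance from the centre of GGTGGCAAA (x axis, bp, 10-bp classes, the match itself shaded), for matches upstream of proteasome genes (solid), upstream of other genes (dashed) and inside coding sequences (dotted), with CCMT (left) and GCMT (right). The match lies in a dip within a high region, with 23.5% for CCMT and 17.3% for GCMT upstream of proteasome genes, and the dip is also there at other matches. With CCMT, upstream of proteasome genes and of other genes, the difference from the flank at 10 to 60 bp is within counting error.

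Cytosines inside GGTGGCAAA were lower than their surroundings with GCMT, but not when compared with cytosines in the same sequence context. Upstream of the proteasome genes, the 61 CC cytosines inside the match had a mean level of 23.5%, against 24.8% for the 233 CC cytosines at 10 to 60 bp from it. The 52 GC cytosines inside had 17.3%, against 27.7% for the 218 around them, and were lower at 24 of 25 matches. The differences were −1.28 points with CCMT (half-width from counting of reads, 2.22) and −10.5 points with GCMT (3.45). When the flanking cytosines were weighted to the 4-base contexts found inside the match, the flank had 20.6% with CCMT and 15.4% with GCMT, and the differences turned to 2.88 and 1.89 points. The lower level inside the match cannot be told apart from the contexts that its letters fix.

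The dip seen with GCMT was also no property of the proteasome genes alone. At the 37 matches upstream of other genes, the differences were −1.80 points with CCMT (half-width, 1.81) and −8.19 with GCMT (2.73). With the same contexts they were −0.54 and −2.16 points. The level inside was lower at 18 of 37 matches with CCMT and at 26 of 35 with GCMT. At 112 matches inside coding sequences the differences from the whole flank were −2.06 and −2.83 points, at a level of 5.81% and 5.38% inside the match. Base by base, the GCC cytosine opposite base 5 of the match had 21.1% with CCMT and 10.6% with GCMT upstream of the proteasome genes, and the GC cytosine at base 6 had 24.5% with GCMT. On the same 9 bases, neighbouring GC cytosines on opposite strands thus differed by more than their counting intervals (pooled reads, 7.78% to 14.8% and 21.0% to 30.7%).

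Strings for other factors were more frequent than in other promoters. TTACCCG, the core of the Reb1 consensus, stood in 11 of the 33 upstream regions (33.3%), against 9.95% of the other genes, and the Abf1 consensus in 15 (45.5%), against 18.0%. Reb1 and Abf1 are general regulatory factors that keep promoters clear of nucleosomes in budding yeast. One or the other, a combination made after the counts were seen, stood in 24 proteasome genes (72.7%), against 26.8% of the other genes. The 26 matches had a median centre of −165 bp, close to the maximum of the mean profile at −170 bp, and 23 of them lay in the promoter region. In the genes that also held GGTGGCAAA, all 21 of these matches lay upstream of it, by a median of 42 bp. The positions of such matches in the other genes were not compared, so this placement is not shown to be particular to the set. In the RPN5 and RPN9 promoter regions, for example, TTACCCG was centred 35 and 24 bp upstream of GGTGGCAAA. The 24 genes had median promoter levels of 23.3% with CCMT and 23.6% with GCMT, against 21.9% and 16.98% in the 9 others of the set. In the other genes the same split gave 20.7% and 22.4% with a match, against 17.04% and 17.8% without. Runs of 7 A or 7 T stood in 18 of 33 (54.5%), near the share of the other genes (64.5%). Occupancy by these factors was not measured.

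Genes that work with the proteasome were counted in the same way. SEM1 (23.5% with CCMT and 31.2% with GCMT) was counted among them. The reference annotation names it as a lid subunit, but it is not a member by the rule. Of 13 proteasome-associated genes, 7 were open with CCMT and 8 with GCMT (53.8% and 61.5%), near the 62.4% and 64.1% of the genes outside the proteasome set. Their median promoter levels were 16.7% and 20.9%, and 6 were open with both enzymes (46.2%, against 52.6%). POC4, which encodes an assembly chaperone, had 30.6% and 41.5%, and UBP6, a deubiquitinase, 28.9% and 29.2%. HSM3 and NAS6, chaperones of the base, had 3.85% and 7.41%, and 12.2% and 6.73%. The CCMT value of HSM3 rests on 4 cytosines and 64 reads. Both genes had their highest windows centred outside the promoter region. These were at −90 bp (35.5%) and −380 bp (18.8%) for HSM3, and at −320 bp (30.3%) and −370 bp (48.8%) for NAS6, with CCMT and GCMT. RPN4 itself had 26.1% and 24.0%. ECM29, the only one of the 13 with GGTGGCAAA, had 37.5% with CCMT and 14.5% with GCMT.

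Of 14 genes of the ubiquitin system, 10 were open with CCMT and 11 with GCMT (71.4% and 78.6%, against the same 62.4% and 64.1%), with medians of 20.7% and 25.3%. Open with both were 9 (64.3%, against 52.6%). With 13 and 14 genes, neither list is set apart from the other genes by these counts. UBI4, which encodes polyubiquitin, had 32.7% and 32.0%, and UFD1, a cofactor of the segregase Cdc48, 33.1% and 33.8%. The ubiquitin ligase gene UBR1 had 8.56% and 9.88%, and RAD23, which encodes a shuttle to the proteasome, 7.10% and 15.3%. GGTGGCAAA stood upstream of UBI4, UBA1 and CDC48.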

How the data were processed

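CCMT- and GCMT-treated nuclei gave 1 library each, grouped by the labels. The authors made the libraries with the tPBAT protocol and mapped the reads to sacCer3 with BMap; tool versions, read filters and the handling of duplicates are not given in the sources used here. The authors deposited 2 values for each listed cytosine, the read count that covered it, which was not normalized, and the methylated fraction of those reads (0 to 1). Listed cytosines had at least 5 reads, so less covered cytosines are outside every value. Reads may include PCR copies, and intervals cover counting error only. The methods give other concentrations of formaldehyde and detergent than the labels, and the study's supplement lists the CCMT library under a sample identifier other than the one used here; whether it is the same library was not settled.

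Methylated reads were recovered as count times fraction, which was whole at all cytosines to the rounding of the fraction. Listed nuclear cytosines summed to 28485123 reads for CCMT and 10967078 for GCMT. The reference genome (R64) placed all cytosines in the target context. A level is the mean over cytosines, given in percent. Positions count from the first base of the start codon. Promoter regions (−250 to −100 bp) and gene bodies (100 to 500 bp, not cut at the stop codon) needed at least 3 cytosines each. Highest windows (100 bp) were moved in steps of 10 bp. Motifs were searched on both strands from −500 to −1 bp, and 2 members have a coding sequence shorter than 500 bp.

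No test was run, since there was 1 library per enzyme. Intervals are 95% exact binomial intervals of pooled reads or, for medians and quartiles over genes, intervals from order statistics, which treat genes as independent. Every proteasome gene is named; described in full are the 3 highest and the 3 lowest by the mean of the percentile ranks in both libraries and the 3 with the largest rank difference (PRE3 is in both). Although the rule for the members uses no measured value, members and lists were chosen with earlier results of these data known. The alternatives were a coverage minimum of 10, no GCC cytosines, CCMT reads thinned to the GCMT depth, pooled reads, another promoter region, at least 6 cytosines, noncoding cytosines only, gene bodies cut at the stop codon, no divergent promoters, an open threshold of 20%, and other flanks of the motif. Functions were tested on simulated data with the real positions and coverage. Scripts ran under Python 3.11.15 with scipy 1.17.1, numpy 2.4.6 and pandas 2.3.3, and figures were drawn with matplotlib 3.10.9.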

Additional observations from a re-analysis of the deposited data

How the results depend on the processing

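Of 84 values recomputed under an alternative, 77 kept their sign and moved by less than the half-width of their interval, or, for counts, stayed within 1.5 times. The proteasome genes stayed above the other genes in every setting run, by 3.47 to 7.72 points with CCMT and 3.36 to 5.94 points with GCMT. With CCMT the difference moved beyond its half-width to 7.59 points with the promoter region from −200 to −50 bp and to 7.72 points without divergent promoters. Core minus regulatory particle changed sign, within its half-width, to −0.77 points with CCMT without divergent promoters, and to −2.20 points with GCMT with the region from −200 to −50 bp. The level inside GGTGGCAAA minus that of its flank moved to 2.88 points with CCMT and reversed to 1.89 points with GCMT when the flank had the contexts of the match, and was −3.67 points with GCMT without the GCC cytosines. Open genes numbered 22 with CCMT and 23 with GCMT at a threshold of 20%, against 41.6% and 47.1% of the other genes. The interquartile range of the set was 6.70 to 9.05 points with CCMT and 9.16 to 14.4 points with GCMT. No paired analysis was possible because there was 1 library per enzyme. In the GCMT library, single genes were limited by few reads and, at PRE4 and PRE5, by 3 and 4 listed GC cytosines.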
